A study of Mus musculus with 8 samples.

Results

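The mRNAs of 46 mitosis and spindle genes were measured in mouse embryonic stem cells, in which transcription had been blocked or left running. The genes were taken from a list of named mitotic regulators and structural proteins by a rule that refers to no measured value. Every gene probe of the array whose RefSeq accession belongs to a listed gene was collected, which gave 62 probes for the 46 genes, out of 55681 gene probes on the array. All 46 genes were found, and all 62 probes were well above background on 8 of 8 arrays, so no member was lost to the filter on dim probes. In all, 28491 features (14930 gene symbols and 13561 probes without a symbol) were tested.

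Mitosis begins when Cdk1 bound to a cyclin is freed of its inhibitory phosphates, and it ends when the anaphase-promoting complex marks cyclin B and securin for destruction. In between, kinetochores attach the chromosomes to spindle microtubules, the spindle checkpoint delays anaphase until every kinetochore is attached, and kinesins move and shape the spindle. Most of these genes are transcribed late in the cell cycle, and embryonic stem cells, which divide fast, express them abundantly. After a block of transcription, the change in the level of an mRNA from its start reflects its loss relative to the other mRNAs on the same array. No decay rate was measured here.

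Single-colour Agilent arrays were used, with 8 cultures in 3 groups. All cells were grown with LIF, which keeps the cells pluripotent, and with 250 nM PD173074, an inhibitor of FGF receptors. A first group of 3 arrays received 5 µM actinomycin D, which blocks transcription, and 30 min later 250 nM 4-hydroxytamoxifen (4OHT) for 4 h. A second group of 2 arrays received actinomycin D in the same way and then ethanol, the vehicle, for 4 h. The last group of 3 arrays (0 h) is labelled as untreated. The titles of these samples nevertheless abbreviate actinomycin D, and each comparison with them rests on the treatment label. The target of 4OHT in these cells is not given by the labels, and the series title refers to Erk and mRNA decay. The design text speaks of 3 biological replicates, of which 2 vehicle arrays were analysed here. All 4OHT arrays lay on slide 1 and all other arrays on slide 2, so 4OHT and slide cannot be told apart. The vehicle and untreated arrays lay in different rows of slide 2, so row and actinomycin D cannot be told apart either.

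Levels are given as the log2 processed signal minus the log2 75th percentile of the gene spots on the same array. A level of 0 is therefore the 75th percentile of that array, and levels of different probes are not set against each other. This scale hides a loss shared by most mRNAs. The 75th percentile itself was 209, 180 and 182 on the 4OHT arrays and 166 and 205 on the vehicle arrays, against 333, 457 and 405 on the untreated arrays. A second scale sets each array against the mean of 8 spike-in control probes of the array. The median of all features was 0.40 higher in vehicle than in untreated cells on the first scale, and −0.88 on the spike-in scale. Differences are tested with limma over all features, and "rose" and "fell" mean an adjusted p under 0.05 relative to the 75th percentile. In bulk RNA, fewer cells in mitosis and less RNA per cell cannot be told apart.

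All 8 embryonic stem cell markers examined, Pou5f1, Nanog and Esrrb among them, were well above background on all 8 arrays. Between vehicle and untreated cells 4 of the 8 rose and 2 fell, with differences from −3.54 to 1.15. Sox2 had the lowest, with levels of 0.998 and 0.683 with vehicle, against 4.49, 4.32 and 4.33 untreated. Of 9 feeder fibroblast markers 3 were well above background on all 8 arrays, with Postn and Lum on none. The summed signal of the feeder markers was 3.93 to 4.42 times the array's 75th percentile with 4OHT. It was 3.26 to 3.62 times with vehicle and 2.62 to 3.68 times in untreated cells. Thy1 carried most of that sum, with levels of 1.77, 1.76 and 1.92 with 4OHT, 1.43 and 1.61 with vehicle and 1.08, 1.19 and 1.70 untreated. Of 7 trophoblast markers 4 were so, with Elf5 on none, and the sums were 14.8 to 52.5, 13.7 to 53.1 and 11.1 to 33.2 times. Krt18 and Krt8 carried most of that sum and had overlapping groups, whereas Gata3 and Ascl2 fell between vehicle and untreated cells (by 2.44 and 1.74). Of 8 primitive endoderm markers 3 were so, and their sums were 84.1 to 105 times with 4OHT, 68.9 to 80.7 times with vehicle and 40.0 to 52.5 times in untreated cells. Lama1 carried nearly all of that sum. Between vehicle and untreated cells Lama1 and Dab2 rose, and 5 of the 8 fell (Gata6, Sox17, Sox7, Foxa2 and Pdgfra), each well above background on no vehicle array. The part of such cells in the results was not tested.

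The promoters of the members share sequence elements that the choice of genes did not use. The cell cycle homology region (CHR) is bound by the MuvB complex, in which Lin54 is the subunit that contacts DNA, and CCAAT boxes are bound by NF-Y. The letters TTTGAA for the CHR and CCAAT for the box were searched on both strands of the RefSeq promoter windows of build GRCm38.p6, which run from 250 bases before to 50 after a transcript start. A window was found for 38 members. The CHR letters were present in 27 of the 38 (71.05%), against 17.54% of the 16613 genes that have both a window and an array probe. The CCAAT letters were present in 28 of the 38 (73.68%), against 42.05%, and both in 23 (60.53%), against 7.067%. Among 90 other mitosis genes with a window, described further on, the shares were 41.11% for the CHR, 60% for CCAAT and 28.89% for both, and among 25 DNA replication genes 16%, 68% and 12%. A match of such short letters is a description and not a site, and motifs that share an end base were both counted. The 5 genes that fell in vehicle relative to untreated cells, and 2 of those with the largest rises, are printed from 100 bases before to 50 after the start, 5′ to 3′ on the gene's strand. They show the elements of genes whose mRNA fell or rose, and a link between element and change was not tested. Capitals mark the CHR letters and the CCAAT letters, or their reverse complements.
Kif18a, chr2:109280638-109280787, plus strand: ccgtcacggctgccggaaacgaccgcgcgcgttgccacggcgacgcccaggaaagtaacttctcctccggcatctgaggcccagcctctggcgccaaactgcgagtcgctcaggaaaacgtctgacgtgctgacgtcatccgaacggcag
Kif20b, chr19:34922258-34922407, plus strand: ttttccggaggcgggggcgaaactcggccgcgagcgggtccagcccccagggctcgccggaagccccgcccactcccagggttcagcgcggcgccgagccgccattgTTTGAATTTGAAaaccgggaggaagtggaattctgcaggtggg
Ect2, the first of 2 windows, chr3:27153829-27153978, minus strand: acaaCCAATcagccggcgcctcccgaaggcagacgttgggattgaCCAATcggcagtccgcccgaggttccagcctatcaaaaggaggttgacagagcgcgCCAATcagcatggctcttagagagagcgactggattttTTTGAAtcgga
Nek2, chr1:191821373-191821522, plus strand: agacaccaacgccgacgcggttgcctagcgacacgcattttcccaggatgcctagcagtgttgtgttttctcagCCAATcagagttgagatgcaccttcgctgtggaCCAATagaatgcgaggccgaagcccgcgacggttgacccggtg
Aurka, chr2:172370521-172370670, minus strand: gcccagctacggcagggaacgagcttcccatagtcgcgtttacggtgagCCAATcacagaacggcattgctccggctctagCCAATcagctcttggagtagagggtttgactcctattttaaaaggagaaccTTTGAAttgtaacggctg
Pttg1, chr11:43425932-43426081, minus strand: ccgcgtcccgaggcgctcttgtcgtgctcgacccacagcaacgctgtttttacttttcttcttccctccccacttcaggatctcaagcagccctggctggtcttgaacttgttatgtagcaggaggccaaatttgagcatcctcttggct
Cenpa, chr5:30666786-30666935, plus strand: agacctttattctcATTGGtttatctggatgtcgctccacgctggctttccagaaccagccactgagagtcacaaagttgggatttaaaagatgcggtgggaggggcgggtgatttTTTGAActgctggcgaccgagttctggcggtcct

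In these stretches Aurka carries CCAAT letters before the start and CHR letters after it, and Ect2 carries CCAAT letters on both sides of the start and CHR letters after it. Kif20b holds 2 adjoining copies of the CHR letters just after the start and no CCAAT box. Kif18a and Pttg1, which lie at opposite ends of the members' differences, hold neither. Over the whole windows, the CHR letters were found in 10 of the 17 members with a window that rose, in 3 of the 5 that fell and in 14 of the 16 that passed the test in neither direction. The CCAAT letters were found in 12, 3 and 13 of these members, in the same order. By position, the CHR letters lay within the 50 bases after the start in 39.02% of the 41 windows of members and 2.25% of all 32851 windows, and within the 50 bases before it in 26.83% and 2.816%. The CCAAT letters lay within the 50 bases before the start in 51.22% and 9.026% of the same windows. Ccna2, Incenp, Aurkb, Cdc25c, Dlgap5, Kif20a, Spc24 and Tpx2 had no entry.

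**Figure D1:**
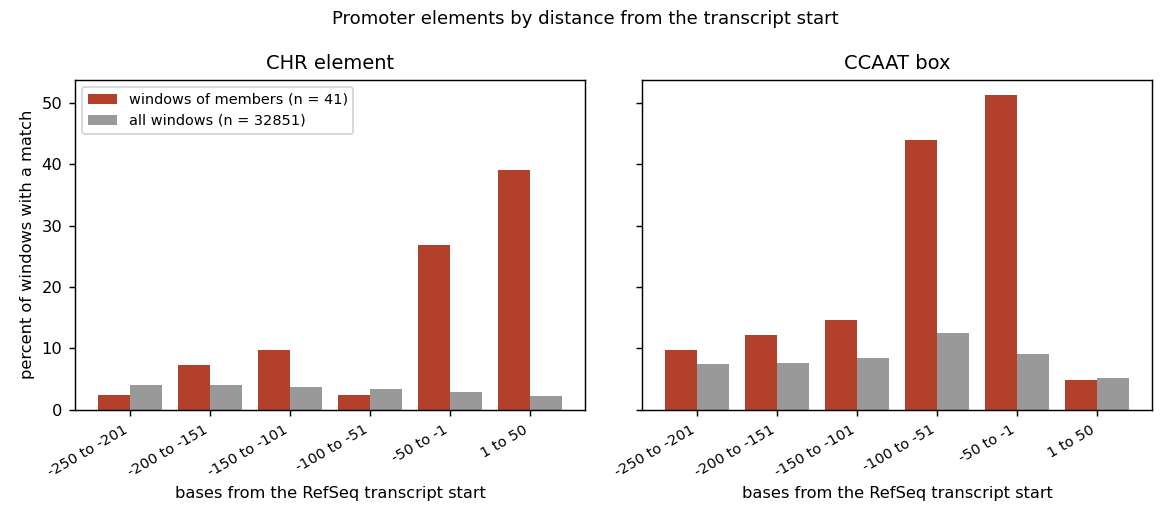
Percent of RefSeq promoter windows with the CHR letters (left) or the CCAAT letters (right), by distance in bases from the transcript start; red bars are the 41 windows of members and grey bars all 32851 windows. Among windows of members the CHR letters gather from 50 bases before to 50 after the start (26.83% and 39.02% of windows) and the CCAAT letters in the 100 bases before it (43.9% and 51.22%).

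The first comparison asks which mitotic mRNAs stood lower or higher, relative to the array, after the block of transcription, with vehicle set against untreated cells. Of the 46 members, 22 rose and 5 fell, where 41.5% of all features rose and 15.9% fell. The median difference of the members was 0.39, beside 0.40 over all features, and the members without Kif18a and Kif20b had a median of 0.41. With only features well above background on all 8 arrays, as every member was, the medians of members and features were 0.39 and 0.48. Relative to the spike-in probes 0 members were called higher and 37 lower, where 0.112% and 65.0% of all features were called, and the median was −0.89. At an unadjusted p under 0.05 the spike-in counts of limma were 0 higher and 39 lower, against 0.137% and 70.1% of features. The vehicle and untreated arrays did not overlap for 35 members, where 71.5% of features did not overlap. On this scale the mitotic mRNAs as a group lay near the median of the array, and single members spread from −2.70 to 1.04. With quantile-normalized values the group lay lower, with a median of −0.083 beside 0.21 over all features. With normexp values the medians were −0.059 and 0.083. Of 32 DNA replication genes, set beside them as another cell cycle group, 28 rose and 3 fell, and their median was 0.75, or −0.52 against the spike-in probes.

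**Figure D2:**
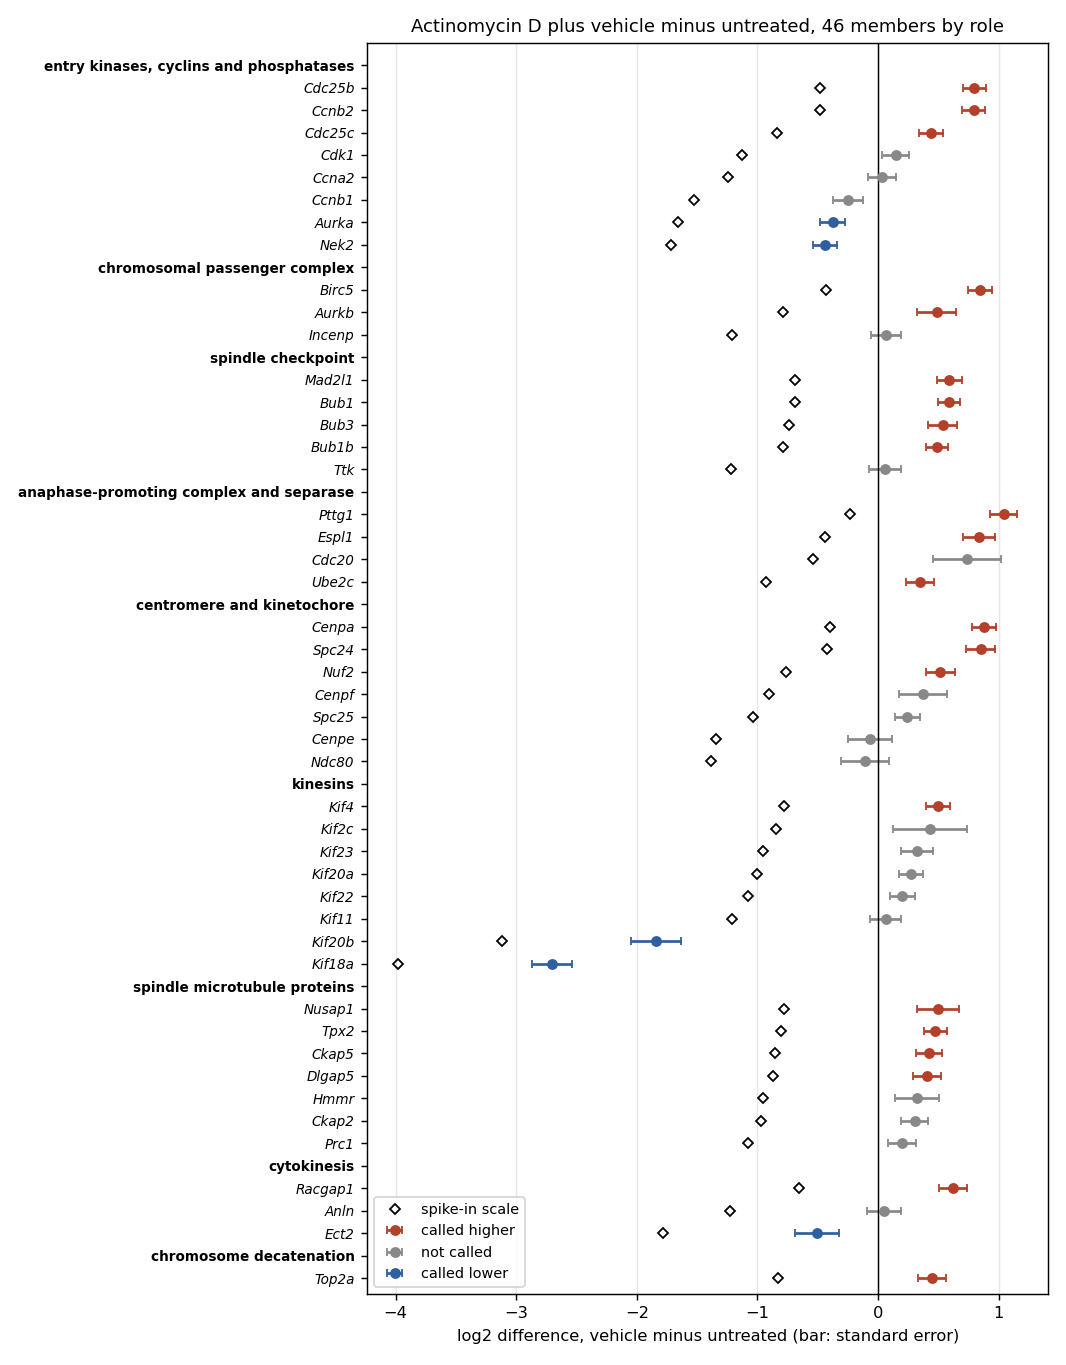
Log2 difference, vehicle minus untreated, of each of the 46 members, grouped by role; filled points with standard error bars are relative to the array's 75th percentile and coloured by call, and open diamonds are on the spike-in scale. Kif18a (−2.70) and Kif20b (−1.84) stand far left of all other members, which lie between −0.51 and 1.04.

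Among the kinases, cyclins and phosphatases of mitotic entry, 3 of 8 rose, 2 fell and 3 passed in neither direction. Counts by role, here and below, stand beside the 41.5% of all features that rose and the 15.9% that fell. They come from few genes and are not read as results about a role. Ccnb2, a cyclin partner of Cdk1, had levels of 6.91 and 6.79 with vehicle, against 6.09, 6.08 and 6.02 untreated. It rose by 0.79 ± 0.10 (limma standard error here and below; adjusted p = 0.0006), and lay at −0.48 on the spike-in scale. Cdc25b, a phosphatase that activates Cdk1, had levels of 2.53 and 2.47 with vehicle, against 1.72, 1.77 and 1.61 untreated, and rose by 0.80 ± 0.09 (adjusted p = 0.00051; spike-in scale −0.48). Both vehicle arrays lay above all 3 untreated arrays for each of these genes. Its relative Cdc25c rose by 0.44 (adjusted p = 0.008; spike-in scale −0.84).

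Aurka, a kinase of centrosomes and spindle poles, had levels of 5.10 and 5.16 with vehicle, against 5.52, 5.58 and 5.43 untreated. It fell by 0.38 ± 0.11 (adjusted p = 0.02), and the groups did not overlap. This call was lost when untreated replicate 2 or any vehicle array was left out (adjusted p between 0.051 and 0.089). Nek2, a kinase that lets the centrosomes separate, had levels of 1.80 and 1.96 with vehicle, against 2.36, 2.30 and 2.29 untreated, and fell by 0.44 ± 0.10 (adjusted p = 0.0077). Again both vehicle arrays lay below all untreated arrays. Cdk1, the kinase that drives entry, had levels of 4.54 and 4.29 with vehicle, against 4.34, 4.26 and 4.21 untreated (difference 0.15 ± 0.11, adjusted p = 0.29). Ccna2, the cyclin of S phase and G2, had levels of 4.78 and 4.58 with vehicle, against 4.75, 4.66 and 4.53 untreated (0.03 ± 0.12, adjusted p = 0.83). Both genes had overlapping groups, and both lay below untreated cells with quantile, normexp and unscaled values. The other probes of Cdk1, with mean signals of 94 and 71, read 0.35 and 0.64 (adjusted p = 0.19 and 0.011). With the mean of its probes Cdk1 lay at 0.38 and its call changed, so no direction is given for Cdk1. Ccnb1, the main mitotic cyclin, had levels of 5.45 and 5.37 with vehicle, against 5.77, 5.74 and 5.46 untreated (−0.25 ± 0.12, adjusted p = 0.12). Its groups differed by a narrow margin on this probe, whereas its other probes read 0.57 and 0.58 (adjusted p = 0.0051 and 0.006), so no direction is given for Ccnb1.

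Of the chromosomal passenger complex, which corrects faulty attachments and starts cytokinesis, 2 of 3 members rose, where 41.5% of all features rose. Birc5 (survivin) had levels of 7.84 and 7.84 with vehicle, against 7.05, 7.07 and 6.86 untreated. It rose by 0.85 ± 0.10 (adjusted p = 0.00053; spike-in scale −0.43), its groups did not overlap, and its other probes read 0.75 and 1.0. With quantile and normexp values Birc5 lay at −0.11 and −0.26. Aurkb, the kinase of the complex, had levels of −3.34 and −3.34 with vehicle, against −3.78, −3.86 and −3.83 untreated (0.49 ± 0.16, adjusted p = 0.038; spike-in scale −0.79). Its probe was dim, with processed signals of 13.3 to 31.6 over the 8 arrays, and the call was lost when any single vehicle or untreated array was left out, and without 4OHT replicate 1, whose spread enters the fit (adjusted p from 0.054 to 0.12). Incenp, the scaffold, differed by 0.07 ± 0.13 (adjusted p = 0.68; spike-in scale −1.21).

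Spindle checkpoint genes rose in 4 of 5 cases, where 41.5% of all features rose. Mad2l1, whose product inhibits Cdc20, rose by 0.59 ± 0.10 (adjusted p = 0.0026), and its other probes read 0.65 and 0.28. The kinase Bub1 rose by 0.59 ± 0.09 (adjusted p = 0.0015), its partner Bub3 by 0.54 (adjusted p = 0.0073) and Bub1b by 0.49 (adjusted p = 0.0036). All 4 lay between −0.79 and −0.69 on the spike-in scale. Ttk, the kinase upstream of the others at the kinetochore, differed by 0.06 ± 0.13 (adjusted p = 0.72).

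Among the genes of anaphase onset, 3 of 4 rose, where 41.5% of all features rose. Pttg1 (securin, the inhibitor of separase) had levels of 6.38 and 6.59 with vehicle, against 5.49, 5.41 and 5.44 untreated. It rose by 1.04 ± 0.11 (adjusted p = 0.0004; spike-in scale −0.23), the top rise of the 46, but a second probe of the same accession, with a mean signal of 104, read −0.23 (adjusted p = 0.23). Espl1 (separase) had levels of 4.03 and 3.94 with vehicle, against 3.27, 2.92 and 3.26 untreated, and rose by 0.84 ± 0.13 (adjusted p = 0.0016; spike-in scale −0.44). Neither gene had overlapping groups. Ube2c, the ubiquitin-conjugating enzyme of the anaphase-promoting complex, rose by 0.35 (adjusted p = 0.036; spike-in scale −0.93). Its call was lost without any single untreated array, vehicle replicate 1 or 4OHT replicate 2 or 3 (adjusted p from 0.055 to 0.2), and without vehicle replicate 1 the difference was 0.22. It was kept under 4 of 12 other settings. Cdc20, the activator of that complex, had levels of 7.79 and 7.37 with vehicle, against 6.75, 7.24 and 6.55 untreated. Its groups did not overlap, yet its arrays spread widely within each group and it missed the threshold (0.74 ± 0.28, adjusted p = 0.061). Without untreated replicate 2, its highest untreated array, the difference was 0.93 (adjusted p = 0.028), and it also passed without 4OHT replicate 1.

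At the centromere and kinetochore, 3 of 7 rose, where 41.5% of all features rose. Cenpa, the histone variant that marks centromeres, had levels of 5.45 and 5.40 with vehicle, against 4.61, 4.62 and 4.42 untreated. It rose by 0.88 ± 0.10 (adjusted p = 0.00044; spike-in scale −0.40). The 4 members of the Ndc80 complex, the microtubule-binding coupler, did not share a call. Spc24 had levels of 4.75 and 4.97 with vehicle, against 4.12, 3.85 and 4.05 untreated, and rose by 0.85 ± 0.12 (adjusted p = 0.0011; spike-in scale −0.43). For Cenpa and for Spc24 both vehicle arrays lay above all untreated arrays. Nuf2 rose by 0.51 (adjusted p = 0.0092; spike-in scale −0.76) with a second probe at 0.04 and lost its call without vehicle replicate 2 (adjusted p = 0.062), while Spc25 differed by 0.24 (adjusted p = 0.085) and Ndc80 by −0.11 (adjusted p = 0.67). The kinetochore motor Cenpe differed by −0.07 (adjusted p = 0.78), and Cenpf by 0.37 (adjusted p = 0.16) on a dim probe.

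The kinesins held the members with the 2 lowest differences. Kif18a, a motor that shortens microtubule plus ends and damps chromosome movements, had levels of −0.79 and −1.0 with vehicle, against 1.73, 1.89 and 1.80 untreated. It fell by 2.70 ± 0.17 (adjusted p = 6.4e-05), which is 6.50-fold lower in vehicle than in untreated cells, and by 3.98 on the spike-in scale. Kif20b, a motor of late mitosis and cytokinesis, had levels of 2.65 and 2.26 with vehicle, against 4.26, 4.39 and 4.25 untreated. It fell by 1.84 ± 0.21 (adjusted p = 0.00044), 3.59-fold lower, and by 3.12 on the spike-in scale. For both motors the vehicle arrays lay far below every untreated array, and the call held under all 17 other settings and omissions of an array that were run (−3.98 to −2.33 for Kif18a and −3.12 to −1.65 for Kif20b). Kif18a lay 3.09 and Kif20b 2.23 log2 units below the median difference of the members, a gap that is the same on any scale with 1 constant per array.

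The other kinesins among the members were unlike these. Kif4, a chromokinesin, rose by 0.49 (adjusted p = 0.0049; spike-in scale −0.78). Kif20a, of the same kinesin family as Kif20b, differed by 0.27 (adjusted p = 0.057), and Kif23, the motor subunit of centralspindlin, by 0.32 (adjusted p = 0.077). Kif11, which pushes the spindle poles apart, differed by 0.06 (adjusted p = 0.7), Kif22 by 0.20 (adjusted p = 0.14) and Kif2c, a microtubule depolymerase, by 0.43 (adjusted p = 0.27). Of these 5 genes, Kif11 and Kif2c had overlapping groups.

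Beside 41.5% of all features, 4 of 7 spindle microtubule proteins rose. They were Nusap1 (0.50, adjusted p = 0.042), the Aurora A activator Tpx2 (0.47, adjusted p = 0.0055), the microtubule polymerase Ckap5 (0.42, adjusted p = 0.013) and Dlgap5 (0.40, adjusted p = 0.019), all 4 between −0.87 and −0.78 on the spike-in scale. The call of Nusap1 was lost in 6 of 8 omissions of an array, all but those of untreated replicate 2 and 4OHT replicate 1 (adjusted p from 0.054 to 0.19), and kept under only 3 of 12 other settings. That of Dlgap5 was lost without either vehicle array (adjusted p = 0.057 and 0.084) and that of Ckap5 without vehicle replicate 1 (adjusted p = 0.079). Hmmr (0.32, adjusted p = 0.17), Ckap2 (0.30, adjusted p = 0.051) and the microtubule bundler Prc1 (0.20, adjusted p = 0.19) did not pass. In cytokinesis, Racgap1, a subunit of centralspindlin, rose by 0.62 ± 0.12 (adjusted p = 0.0036; spike-in scale −0.66), and its second probe read 0.68. Ect2, the exchange factor that centralspindlin recruits to switch on RhoA, had levels of 4.31 and 4.12 with vehicle, against 5.08, 4.61 and 4.48 untreated. It fell by 0.51 ± 0.18 (adjusted p = 0.048), with groups that did not overlap but 1 untreated array well above the rest. The call was lost in 7 of 8 omissions of an array, all but that of untreated replicate 3 (adjusted p between 0.056 and 0.2). Without untreated replicate 1 the difference was −0.33, and the call was kept under 9 of 12 other settings. The scaffold Anln differed by 0.05 (adjusted p = 0.79). Top2a, which untangles sister chromatids, had levels of 5.10 and 4.90 with vehicle, against 4.57, 4.59 and 4.50 untreated, and rose by 0.45 ± 0.11 (adjusted p = 0.014; spike-in scale −0.83). The groups did not overlap, and the call was lost without vehicle replicate 1 (0.35, adjusted p = 0.083).

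The second comparison asks whether 4OHT altered the remaining mRNA after the block, with 4OHT set against vehicle. Of the 46 members 0 rose and 2 fell, where 0.920% of all features rose and 2.58% fell. The median difference of the members was −0.05, the same to 2 decimals as that of all features, and their differences ran from −1.06 to 0.43. On the spike-in scale 0 were called higher and 2 lower, where 0.137% and 4.12% of features were called, and the members had a median of −0.36 there. At an unadjusted p under 0.05 limma gave 2 members higher and 8 lower, where 6.33% and 12.8% of features did so. On the spike-in scale it gave 0 and 9, where 0.969% and 24.7% of features did so. The 4OHT and vehicle arrays did not overlap for 16 members, where 38.2% of features did not overlap.

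**Figure D3:**
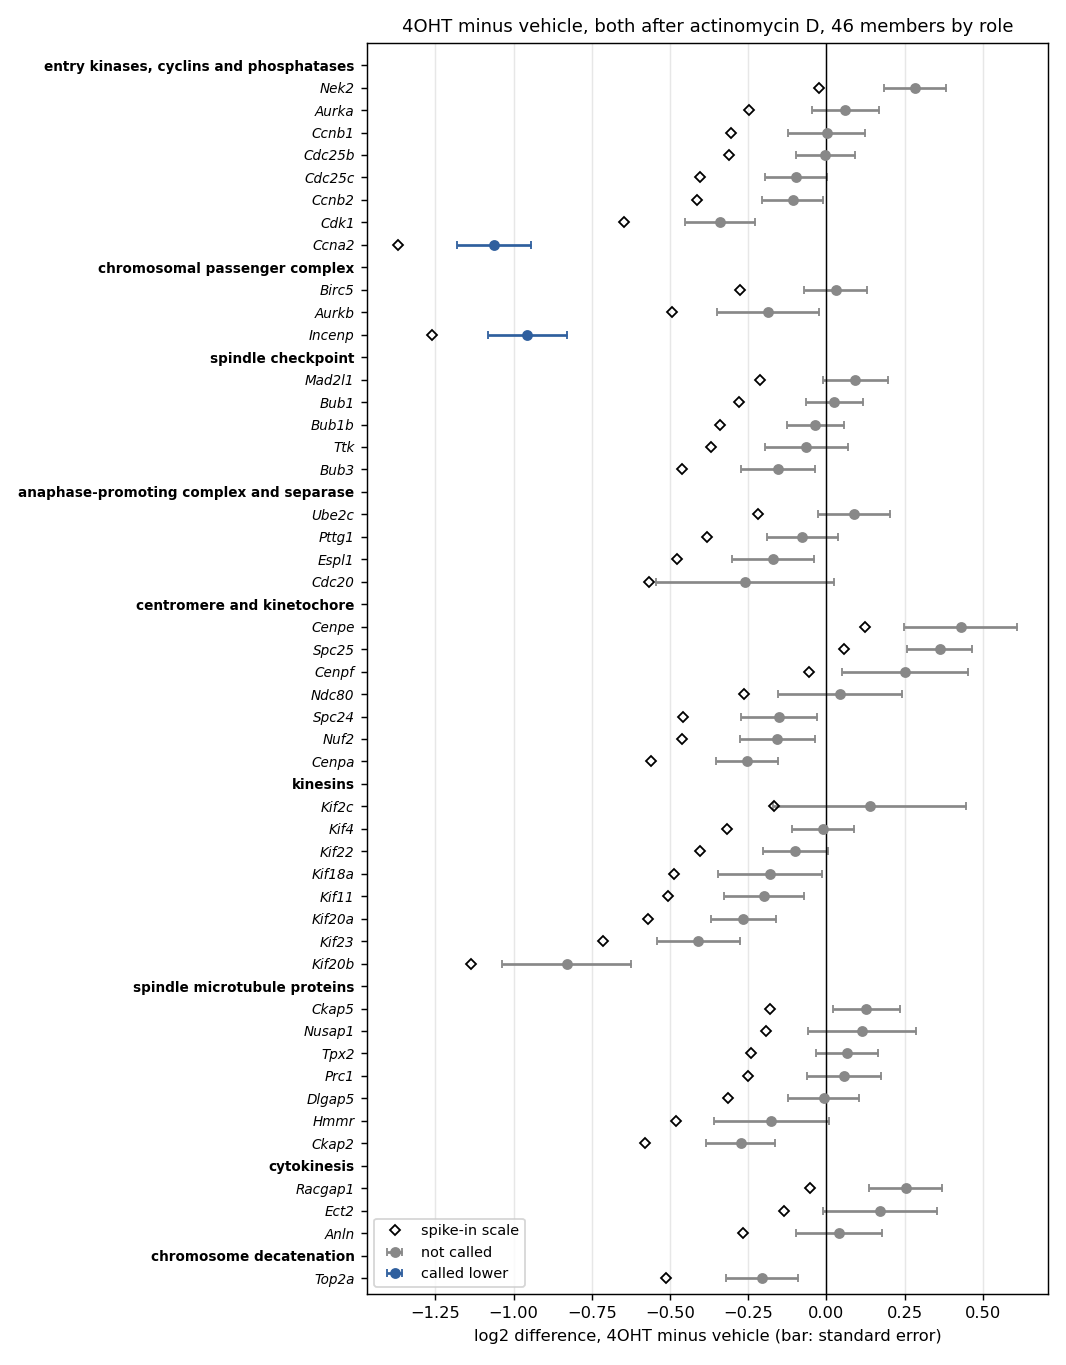
Log2 difference, 4OHT minus vehicle, of each of the 46 members, grouped by role; filled points with standard error bars are relative to the array's 75th percentile, and open diamonds are on the spike-in scale. Ccna2 (−1.06) and Incenp (−0.96), in blue, are the called members, and Kif20b (−0.83) is next without passing the test.

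Ccna2 had levels of 3.72, 3.55 and 3.58 with 4OHT, against 4.78 and 4.58 with vehicle. It fell by 1.06 ± 0.12 (adjusted p = 0.01), 2.09-fold lower with 4OHT than with vehicle, and by 1.37 on the spike-in scale. Incenp had levels of 5.65, 5.51 and 5.51 with 4OHT, against 6.62 and 6.41 with vehicle, and fell by 0.96 ± 0.13 (adjusted p = 0.016), 1.94-fold lower. For each gene all 3 4OHT arrays lay well below both vehicle arrays, and the second Incenp probe read −0.88 (adjusted p = 0.013). Neither mRNA had passed the test between vehicle and untreated cells, where they differed by 0.03 and 0.07. The sizes stayed between −1.37 and −0.95 for Ccna2 and between −1.26 and −0.84 for Incenp under all 17 settings and omissions of an array. Under 5 of 12 settings both calls were lost, namely with array-median or no scaling, no filter, only the groups compared and the replicate block. They were lost too without vehicle replicate 1 (−0.96 and −0.85, adjusted p = 0.059 and 0.087), and that of Incenp also without 4OHT replicate 2 or 3 (adjusted p = 0.065 and 0.053).

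Kif20b followed, with levels of 2.0, 1.48 and 1.40 with 4OHT, against 2.65 and 2.26 with vehicle. Its groups did not overlap, but the spread among the arrays was wide and it did not pass (−0.83 ± 0.21, adjusted p = 0.086), though it passed without 4OHT replicate 1 (adjusted p = 0.043). Kif18a, the other motor that fell between vehicle and untreated cells, had levels of −0.77, −1.26 and −1.20 with 4OHT, against −0.79 and −1.0 with vehicle (−0.18 ± 0.17, adjusted p = 0.63). Its groups overlapped. The partners of the called genes did not pass the test. Cdk1, the kinase partner of Ccna2, had levels of 4.14, 4.08 and 4.00 with 4OHT, against 4.54 and 4.29 with vehicle (−0.34 ± 0.11, adjusted p = 0.16). Ccnb1 had levels of 5.36, 5.37 and 5.50 with 4OHT, against 5.45 and 5.37 with vehicle (difference 0.00 ± 0.12), and Ccnb2 differed by −0.11 ± 0.10 (adjusted p = 0.62). Only Cdk1 of these 3 had separate groups.

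Birc5, a partner of Incenp, had levels of 7.91, 7.82 and 7.88 with 4OHT, against 7.84 and 7.84 with vehicle (0.03 ± 0.10, adjusted p = 0.91). Aurkb, the kinase that Incenp activates, had levels of −3.58, −3.21 and −3.78 with 4OHT, against −3.34 and −3.34 with vehicle (−0.19 ± 0.16, adjusted p = 0.6). The groups overlapped for both. Aurka differed by 0.06 ± 0.11 (adjusted p = 0.82), Cdc20 by −0.26 ± 0.28 (adjusted p = 0.69) and Top2a by −0.21 ± 0.11 (adjusted p = 0.39). Spindle checkpoint genes lay between −0.16 and 0.09 with 0 of 5 called, and all 5 had overlapping groups. The highest differences were those of Cenpe (0.43 ± 0.18, adjusted p = 0.26), Spc25 (0.36 ± 0.10, adjusted p = 0.12) and Nek2 (0.28 ± 0.10, adjusted p = 0.18), none of which passed.

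**Figure D4:**
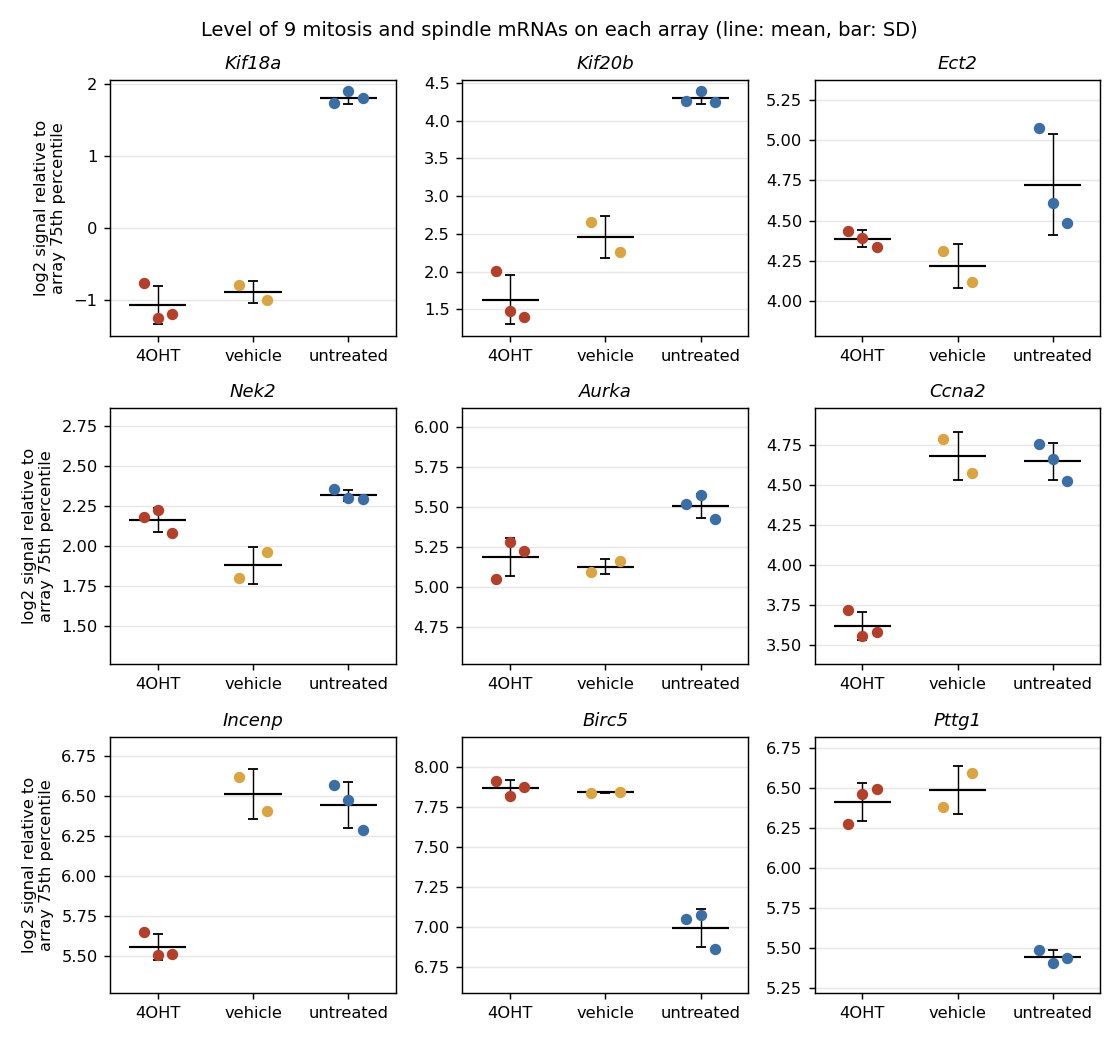
Level (log2 signal relative to the array's 75th percentile) of 9 members on each of the 8 arrays, with 4OHT (red), vehicle (yellow) and untreated (blue) from left to right; lines are means and bars SD (n = 3, 2 and 3). On this scale Kif18a and Kif20b are low in both actinomycin D groups, Ccna2 and Incenp only on the 4OHT arrays, and Birc5 and Pttg1 are high in both actinomycin D groups.

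The last comparison sets 4OHT against untreated cells and shares its arrays with the other 2, so it is no separate evidence. Of the 46 members 22 rose and 5 fell, where 41.0% of all features rose and 18.7% fell, and 34 had groups that did not overlap, where 66.4% of features did not overlap. The median of the members was 0.36, beside 0.31 over all features. With only features well above background on all 8 arrays, the medians of members and features were 0.36 and 0.43, in the other order. On the spike-in scale 0 members were called higher and 46 lower, where 0.102% and 93.4% of features were called, and the members' median there was −1.22. All 46 had an unadjusted p under 0.05 there by limma, as did 93.8% of features in that direction. Kif18a fell by 2.88 ± 0.15 (adjusted p = 1.7e-05) and Kif20b by 2.67 ± 0.19 (adjusted p = 5.9e-05), 7.37-fold and 6.38-fold lower with 4OHT than untreated. Ccna2 fell by 1.03 ± 0.11 (adjusted p = 0.00023) and Incenp by 0.89 ± 0.11 (adjusted p = 0.00051). For these 4 genes all 4OHT arrays lay below all untreated arrays, and the calls held under all 18 other settings and omissions that were run. Aurka fell by 0.32 ± 0.10 (adjusted p = 0.024), a call lost without untreated replicate 1 or 2 or 4OHT replicate 1 or 3 (adjusted p from 0.052 to 0.068). Of the 27 calls 22 held in all 8 omissions of an array, and the others lost in at least 1 were those of Cdc25c, Bub3, Cenpf and Nuf2 (adjusted p from 0.052 to 0.084).

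The largest rises were those of Pttg1 (0.96 ± 0.10), Birc5 (0.88 ± 0.09), Racgap1 (0.87 ± 0.10), Cdc25b (0.79 ± 0.08), Spc24 (0.70 ± 0.11) and Ccnb2 (0.68 ± 0.09), with adjusted p from 0.00023 to 0.0013 and −0.90 to −0.62 on the spike-in scale. Racgap1 had levels of 5.00, 4.75 and 4.79 with 4OHT, against 3.92, 4.09 and 3.91 untreated. Pttg1 had levels of 6.27, 6.46 and 6.49 with 4OHT, against the untreated values given above. Neither gene had overlapping groups. Spc25, a member of the Ndc80 complex, rose by 0.60 (adjusted p = 0.0013; spike-in scale −0.98) and Cenpf by 0.62 (adjusted p = 0.021; −0.96), while both missed the threshold between vehicle and untreated cells.

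Another 108 genes of mitosis, in 6 lists of complexes and regulators, were set beside the members, and 107 of them were tested. Between vehicle and untreated cells 45 rose and 32 fell, beside the shares of 41.5% and 15.9% of all features, and their median was 0.18. Relative to the spike-in probes 0 were called higher and 87 lower, where 0.112% and 65.0% of all features were called. At an unadjusted p under 0.05 limma gave 0 higher and 93 lower, where 0.137% and 70.1% of features did so. Wee1 and Fbxo5 had the deepest falls of the 107. Wee1, the kinase that holds Cdk1 inactive, fell by 4.24 ± 0.11 (adjusted p = 3.5e-06), and Fbxo5, the inhibitor of the anaphase-promoting complex, by 3.99 ± 0.10 (adjusted p = 3.5e-06). Among centromere and kinetochore genes 13 of 31 rose and 12 fell, led by Mis12 (by 2.43 ± 0.15), and among cohesin genes 6 of 13 rose and 2 fell, led by Sgo1, the protector of centromeric cohesion (by 2.10 ± 0.09). Of the anaphase-promoting complex and its regulators 13 of 17 rose, with Anapc5 at 1.12, and 2 fell, Fbxo5 and Anapc7 (by 0.37). Of condensin 4 of 8 rose and 1 fell, with Ncapd2 at 1.13. On the spike-in scale Anapc5 and Ncapd2 lay at −0.16 and −0.15.

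Of 10 genes for transcription factors of mitotic promoters 2 rose and 5 fell, where 41.5% and 15.9% of all features did so. The MuvB subunits Lin9, Lin54 and Lin52 fell by 2.27 ± 0.17, 2.10 ± 0.13 and 1.90, and Lin37 by 0.33. Nfya, a subunit of NF-Y, fell by 1.85, while its partners Nfyb and Nfyc differed by 0.46 and 0.59 without passing (adjusted p = 0.056 and 0.07). Rbbp4, also a MuvB subunit, rose by 1.15 (−0.13 on the spike-in scale) and Mybl2 by 0.54 (−0.74), while Foxm1 differed by 0.14 without passing. Lin37 and Nfya complete the count of 5 falls, and they, Foxm1, Nfyb and Nfyc were named after their values were seen. Of the spindle, entry and cytokinesis genes outside the 46, 7 of 28 rose and 10 fell, beside the same shares of all features. Among the falls was Haspin, a histone kinase, by 1.97 ± 0.16.

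With 4OHT against vehicle, 3 of these 107 genes rose and 9 fell, beside 0.920% and 2.58% of all features. The falls were those of Ska3 (by 1.41 ± 0.11, adjusted p = 0.0051) and Ska2 (by 0.85 ± 0.11), of the complex that couples kinetochores to microtubules, Depdc1b (by 1.23 ± 0.19), the mitotic kinase Plk1 (by 1.12 ± 0.15, adjusted p = 0.017), Wee1 (by 0.99 ± 0.11, adjusted p = 0.0095), Lin54 (by 0.72 ± 0.13), Cdca5 (by 0.72 ± 0.11), Cdca2 (by 0.66 ± 0.11) and Oip5 (by 0.54 ± 0.09). The rises were those of Spdl1 (0.64 ± 0.13, adjusted p = 0.046), Cenpo (0.59 ± 0.10, adjusted p = 0.03) and Cdc27 (0.54 ± 0.10, adjusted p = 0.038), at 0.33, 0.29 and 0.23 on the spike-in scale. Cdca2 was named although the rule for these lists covers 3 falls per list, to complete the count. Of the 32 DNA replication genes 1 fell, Cdt1, a licensing factor (by 1.18 ± 0.12, adjusted p = 0.0091), and 0 rose by limma. At an unadjusted p under 0.05 limma gave 6 lower and 2 higher, where 12.8% and 6.33% of features did so. With 4OHT against untreated cells, 52 of the 107 rose and 37 fell, where 41.0% and 18.7% of all features did so.

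**Figure D5:**
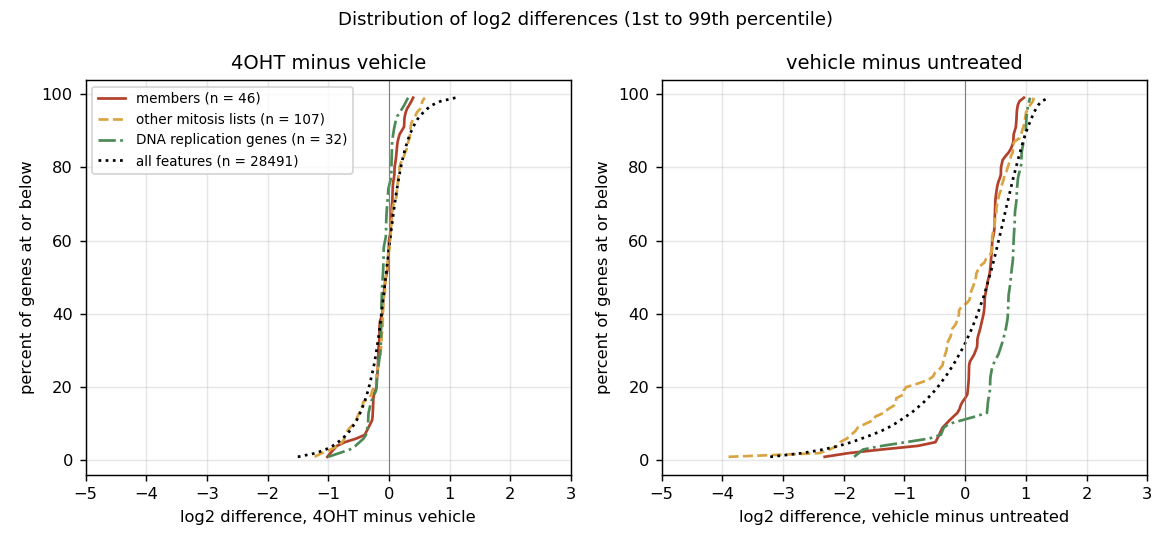
Percent of genes at or below each log2 difference, 4OHT minus vehicle (left) and vehicle minus untreated (right), relative to the array's 75th percentile, for the 46 members (red), the 107 other mitosis genes (yellow dashes), the 32 DNA replication genes (green) and all 28491 features (black dots). In both panels the members cross 50% near the median of all features (−0.05 on the left, 0.39 beside 0.40 on the right), the replication genes cross it at 0.75 on the right and the other mitosis genes at 0.18.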

How the data were processed

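RNA of 8 embryonic stem cell cultures was hybridised to 8 single-colour arrays. Per the file headers, which name build mm9, the authors ran Agilent Feature Extraction 11.0.1.1. The deposited intensity used is its processed signal, which is linear and background-subtracted. Per the labels' protocols a fixed mass of total RNA was amplified and labelled. Per the labels the dye is Cy5, while the files hold the green channel.

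Control spots (3671 per array) and outlier-marked spots were left out, spots of a probe were averaged, and 466 probes without a value on an array were dropped (425 of them through untreated replicate 2). Log2 signal minus the array's log2 75th percentile was tested. Probes well above background on all arrays of at least 1 group were kept (33008), and the brightest probe stood for each RefSeq symbol. For 12 members several probes existed, and values of other probes come from a fit over the 33008 kept probes. The spike-in scale subtracts the mean of 8 of the 10 E1A probes, which are meant to be added before labelling; the labels do not describe that step.

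Tests used limma 3.58.1 (lmFit and eBayes, two-sided) in R 4.3.3, in 1 fit of the 3 groups over 8 arrays with 5 residual degrees of freedom, adjusted by Benjamini-Hochberg over 28491 features. The threshold was 0.05. P-values reflect the spread between arrays, whose number limits the precision, and the median standard error was 0.17 for both comparisons with vehicle. The fit was tested on simulated data. The design text states no pairing, and the main fit used none. Deviations of same-numbered arrays correlated between −0.19 and 0.36, and those of differently numbered arrays between −0.36 and 0.23. Same-numbered vehicle and 4OHT arrays had 0.36 and 0.22. The deviations of 2 vehicle arrays mirror each other, so these correlations cannot settle whether replicate numbers pair the arrays.

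The members' rule refers to no measured value, but members, lists and tests were chosen with earlier results of these data known. All members may be named. Values per array are given for Cdk1, Ccna2, Ccnb1, Ccnb2, Aurka, Aurkb, Cdc20, Birc5 and Top2a, and per comparison for up to 6 called members with the largest rise and 6 with the largest fall, where not given before. Other lists name up to 3 called genes per direction, except where the text says otherwise. Kif18a with 4OHT, and the probes that differ, were described after their values were seen. The alternatives were normexp (offset 50) with quantile normalization, quantile normalization alone, array median, no scaling, spike-in scaling, the deposited value table (the same intensities per probe), no filter, a filter over all 8 arrays, the mean of a gene's probes, trended robust eBayes, a 2-fold minimum, a replicate block, a fit of only the compared groups and omission of each array in turn.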

Additional observations from a re-analysis of the deposited data

How the results depend on the processing

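Precision is limited by 2 vehicle arrays, and directions between actinomycin D and untreated cells depend on the scale. In the sentences below the cause of a changed value was not tested, except that fewer arrays or features alter the test by construction. For vehicle against untreated cells the members' median of 0.39 became −0.083 with quantile, −0.059 with normexp, −0.71 with unscaled and −0.89 with spike-in values. The median of all features, 0.40, became 0.21, 0.083, −0.70 and −0.88 with the same values. The 22 members called higher became 8 with quantile, array-median or normexp values, 0 unscaled or on the spike-in scale and 1 with a 2-fold minimum. Of all features 41.5% were called higher, which became 26.1%, 25.9% and 25.6% with quantile, array-median and normexp values, 0.123% unscaled and 0.112% on the spike-in scale. The 5 called lower became 15 with quantile, 13 with normexp, 27 unscaled, 37 on the spike-in scale, 2 with array-median values or a 2-fold minimum, 3 without the filter, and 3 to 6 when 1 array was left out. Of all features 15.9% were called lower, which became 17.3% with quantile, 17.9% with normexp, 45.9% unscaled, 65.0% on the spike-in scale, 12.7% with array-median values and 8.58% without the filter. For 4OHT against vehicle the median of −0.05 became −0.36 on the spike-in scale. The count called higher, 0 of 46, became 1 with normexp values, and the 2 called lower became 0 with array-median or unscaled values, without the filter, with only the groups compared or with the replicate block, 1 with a 2-fold minimum, and 0 to 3 when 1 array was left out. Of all features 2.58% were called lower, which became 0.572% with array-median and 0.263% with unscaled values, 0.171% without the filter, 0.168% with only the groups compared and 0.0421% with the replicate block. For 4OHT against untreated cells the median of 0.36 became −0.10 with quantile, 0.51 with array-median, −0.69 with unscaled, −1.22 with spike-in and −0.12 with normexp values. The median of all features, 0.31, became 0.18, 0.46, −0.75, −1.27 and 0.074 in that order. The 22 called higher became 9, 10, 0 and 0 with quantile, normexp, unscaled and spike-in values, and 0 with a 2-fold minimum. The 5 called lower became 13, 15, 30 and 46 with the same values, and 3 with a 2-fold minimum. In the same order, 30.1%, 29.2%, 0.333% and 0.102% of all features were called higher and 19.4%, 19.6%, 55.4% and 93.4% lower. With the replicate block, 17 members were called higher and 5 lower for vehicle against untreated cells, and 21 and 5 for 4OHT against untreated cells; Aurkb lost its call (adjusted p = 0.093). Between vehicle and untreated cells 18 of the members' 27 calls held in all 8 omissions of an array. The exceptions were Aurka, Aurkb, Nusap1, Ube2c, Top2a, Ckap5, Dlgap5, Ect2 and Nuf2.

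On the spike-in scale all 46 members lay below 0 in both comparisons with untreated cells. The highest was at −0.23 for vehicle and −0.62 for 4OHT. Every member with a positive difference on the first scale thus changed sign there. The list below covers only members picked for values per array that were called on the first scale or under the other setting. For vehicle against untreated cells, unscaled values were −0.61 for Aurkb, −0.25 for Birc5, −1.06 for Ccna2, −0.30 for Ccnb2, −0.30 for Cdc25b, −0.95 for Cdk1, −0.22 for Cenpa, −0.26 for Espl1, −0.054 for Pttg1, −0.24 for Spc24 and −0.65 for Top2a. Spike-in values of these 11 were −0.79, −0.43, −1.24, −0.48, −0.48, −1.13, −0.40, −0.44, −0.23, −0.43 and −0.83. Quantile values were −0.11 for Birc5, −0.48 for Ccna2, −0.024 for Ccnb2, −0.33 for Cdk1 and −0.086 for Top2a. Normexp values were −0.26 for Birc5, −0.48 for Ccna2, −0.47 for Cdk1 and −0.15 for Top2a. For 4OHT against untreated cells, unscaled values were −0.76 for Aurkb, −0.18 for Birc5, −0.37 for Ccnb2, −0.26 for Cdc25b, −0.090 for Pttg1, −0.18 for Racgap1, −0.36 for Spc24 and −0.82 for Top2a. Spike-in values of these 8 were −1.28, −0.71, −0.90, −0.79, −0.62, −0.71, −0.88 and −1.34, and Cdc20 was at −1.11. Quantile values put Ccnb2 at −0.056, and normexp values put Birc5 at −0.013 and Ccnb2 at −0.069. The mean of its probes put Ccnb1 at 0.30 for vehicle and 0.42 for 4OHT against untreated cells.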

Other observations

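Taken array by array, the median level of the 46 members stood 5.66, 5.55 and 5.47 log2 units above the median of all features with 4OHT and 5.67 and 5.39 with vehicle, against 5.35, 5.42 and 5.29 in untreated cells. Vehicle replicate 2 lay inside the untreated range and the other 4 arrays with actinomycin D above it. Members read by several probes differed in how well those probes matched. Tpx2 read 0.48 and 0.47 between vehicle and untreated cells on its probes and Kif2c 0.43 and 0.48, whereas Dlgap5 read 0.40 and 0.19 and Cdk1 0.15, 0.35 and 0.64.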
